A study of Caenorhabditis elegans with 4 samples.

Results

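Broad LIN-39 regions are the 546 stretches of the Caenorhabditis elegans genome that were at least 1000 bp wide in a list of 7493 regions enriched in a LIN-39 immunoprecipitation. They made up 7.29% of the list. They were chosen by their width alone (last base minus first base plus 1), a value that comes from the same comparison of immunoprecipitated with input DNA as the list itself, so width, q-value, reads and enrichment are given below as a description with no test. The list holds the regions with q below 0.01, which were 29.4% of an inferred 25497 tested regions, and every broad region is in it by definition. Their surroundings were not used to choose them and were compared with those of the 3736 listed regions of 250 to 560 bp. Gaps between regions nevertheless come from the same division into regions as the widths, so they are not independent of them. Whether a neighbour is broad is set by the same width limit, so that comparison is not independent of the choice either.

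LIN-39 is a Hox protein, a homeodomain transcription factor that binds DNA directly and gives cells of the mid-body their positional identity. In larvae it is known for its part in the vulval precursor cells, in ventral cord neurons and in migrating Q neuroblasts. A narrow region in such an experiment is what a single bound site gives after sonication, whereas a wide one can hold several sites close together.

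Hermaphrodites at the third larval stage (L3) of strain OP18 were grown at 20 °C. All carried unc-119(ed3) III and the transgene wgIs18, which holds a wild-type unc-119 and lin-39 fused to TY1, EGFP and 3xFLAG, was introduced by bombardment and was outcrossed 3 times. Per the labels the fusion follows the expression pattern of lin-39. The endogenous lin-39 is not named as mutated, so tagged protein from 1 transgenic strain stands for the factor. Whole worms crosslinked with 2% formaldehyde gave 2 ChIP libraries, made with a goat antibody against EGFP, and 2 input libraries of DNA that was not precipitated. The 4 libraries enter 1 combined list, so no value below has a spread between replicates. Library totals were not used, and depth is given as reads within regions, which were inferred from the q-values.

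Broad regions ranged from 1000 to 11084 bp with a median of 1358.5 bp and an interquartile range of 1139 to 1867 bp. Most were only moderately wide: 325 lay between 1000 and 1499 bp, 107 between 1500 and 1999 bp, 74 between 2000 and 2999 bp, 22 between 3000 and 3999 bp, and 18 reached 4000 bp. Together they covered 931 kb, which is 26.0% of the length of all listed regions, and held 25.7% of the inferred ChIP reads. The limit of 1000 bp falls in a continuous range of widths. Just inside it were regions of 1000 bp (III, 8801371 to 8802370, 2.01-fold), 1001 bp (IV, 8891213 to 8892213, 1.65-fold) and 1002 bp (X, 3455447 to 3456448, 3.73-fold). Just outside were 2 regions of 997 bp, enriched 2.37-fold on IV and 2.57-fold on II, and a region of 999 bp on II at 1.65-fold.

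Each broad region held many reads but few stood far above input. The median was 329.5 ChIP reads, with a range of 101 to 5088, against a median of 83 in regions of 250 to 560 bp. Enrichment, the ratio of ChIP reads to input reads scaled by the authors' procedure, had a median of 2.01-fold and an interquartile range of 1.72 to 2.41. In the comparison regions the median was 2.48-fold. Of the 546 broad regions 268 (49.1%) were enriched less than 2-fold and 71 (13.0%) at least 3-fold, whereas of the comparison regions 19.7% lay below 2-fold and 30.1% at or above 3-fold. Only 104 broad regions reached the median of the whole list, 2.60-fold, and 52 of them were on chromosome I. All these counts pool I, whose inferred input factor is lower, with the other chromosomes, as described below. Selection shapes both groups, because a region with few reads enters the list only at a high ratio.

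The list ordered by q began with broad regions. The first 10 regions of the list by q were all broad, as were 22 of the first 25, 64 of the first 100 and 292 of the first 1000. Comparison regions numbered 0, 1, 11 and 337 in the same ranges. Broad regions nevertheless spread over nearly the whole list, from rank 1 to rank 7277, with a median rank of 918.5. Among them the rank followed enrichment too, with a median of 2302 below 2-fold, 598 from 2-fold to 3-fold and 138 at 3-fold or more. Both patterns are tied to how q is made, since it depends on read numbers as well as on their ratio. At a given ratio q falls as reads rise, and wider broad regions held more ChIP reads (Spearman's rho 0.64). A top rank is therefore not a measure of the ratio alone.

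Relative to other listed regions, the input itself was high in broad regions, by an amount that depends on how length is counted. Input reads per kb of width plus 200 bp, before scaling and relative to the median listed region of the same chromosome, had a median of 1.76 in broad regions and 1.06 in comparison regions. A relative input of at least 1.5 was found in 357 broad regions (65.4%) and in 860 comparison regions (23.0%). The direction was the same on each chromosome, with broad medians between 1.56 on IV and 1.94 on X and comparison medians between 0.997 on IV and 1.14 on I. The added 200 bp lowers the value of narrow regions more than that of wide ones. Per kb of width alone the medians were 1.27 and 1.05, with the broad value still higher on 6 of 6 chromosomes, and a relative input of at least 1.5 was found in 29.7% of broad and 21.0% of comparison regions. For ChIP reads per kb the direction itself depends on this choice: relative to the same median region, broad and comparison medians were 1.39 and 1.08 with the added length, and 0.956 and 1.04 without it. Relative inputs below include the added length unless stated otherwise. Only listed regions are compared, and a region with few reads is listed only at a high ratio. The q limit can therefore keep narrow regions of high input off the list. Spearman's rho between enrichment and relative input was -0.61 in comparison regions and -0.23 in broad ones. How far this selection sets the difference in input was not tested. The part that the input level plays in the width of a region was not tested either.

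**Figure D1:**
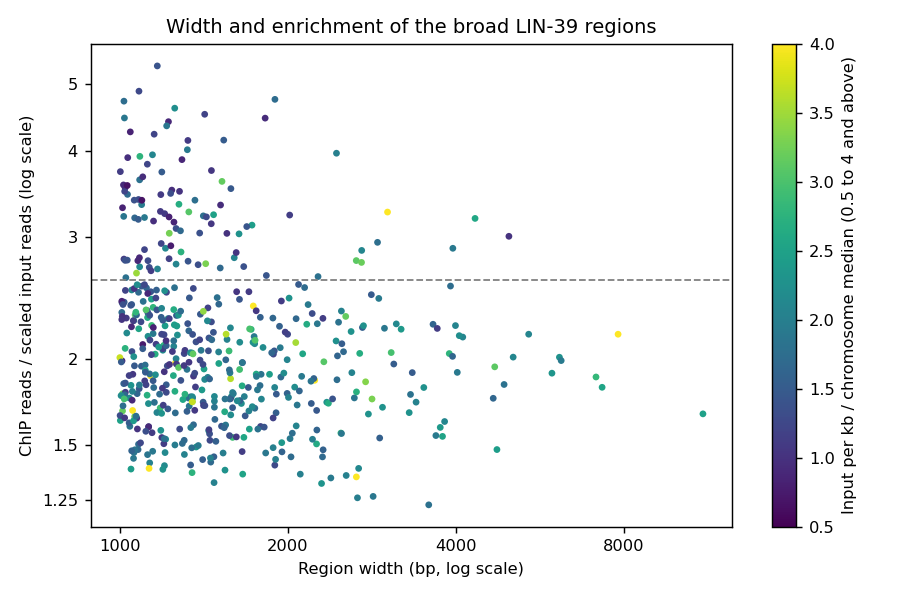
Each point is 1 of the 546 broad regions. The x axis gives width in bp and the y axis the ratio of ChIP reads to scaled input reads, both on log scales, colour gives input per kb relative to the chromosome's median region, and the dashed line marks the median ratio of the whole list (2.60). Most points lie below the line, the points above 4-fold are all narrower than 2000 bp, and the 10 widest regions lie between 1.66-fold and 3.01-fold. Ratios on chromosome I use its own, lower input factor.

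Across the broad regions, wider ones were slightly less enriched and had slightly more input. Spearman's rho over the 546 regions was -0.19 between width and enrichment, 0.27 between width and relative input, and -0.23 between enrichment and relative input. These are descriptions without a test, and the 3 quantities share the same reads and widths. By width class the median enrichment was 2.09-fold from 1000 to 1499 bp, 1.90-fold from 1500 to 1999 bp, 1.86-fold from 2000 to 2999 bp, 1.99-fold from 3000 to 3999 bp and 1.97-fold from 4000 bp. The median relative input went from 1.56 to 1.88, 1.93, 2.06 and 2.25 over the same classes, and per kb of width alone from 1.19 to 1.33, 1.36, 1.43 and 1.52.

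The widest regions show how large a listed region could be at a low ratio. The region on II from 10541815 to 10552898 (11084 bp) had a ratio of 1.66. On III, the region from 7529752 to 7537561 (7810 bp), first in the list by q, was enriched 2.17-fold on a relative input of 4.70. It was followed by X from 6738525 to 6745836 (7312 bp), at 1.82-fold and a relative input of 2.54. On V, the region from 6222870 to 6229999 (7130 bp) was enriched 1.88-fold on 2000 ChIP reads. The region on X from 11471146 to 11477321 (6176 bp) was enriched 1.99-fold and that on V from 15563985 to 15570115 (6131 bp) 2.01-fold. Apart from the region on III, all of these had a relative input of 1.93 to 2.83. Ratios of 1.91 and 2.17 followed on V from 10718271 to 10724215 (5945 bp) and on I from 7078809 to 7084209 (5401 bp). The widest on IV, from 17276997 to 17282062 (5066 bp), was enriched 2.01-fold. The region on II from 4572343 to 4577320 (4978 bp) differed from the rest of the 10 widest: its relative input was 1.02, and it was enriched 3.01-fold with 809 ChIP reads against 269.

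High ratios were found at the narrow end. The most enriched broad region lay on I from 9962044 to 9963210 (1167 bp), with 467 ChIP reads against 88 scaled input reads, or 5.31-fold. Next came I from 1598031 to 1599112 at 4.88-fold, V from 4506715 to 4508610 at 4.75-fold, I from 9372739 to 9373755 at 4.72-fold and I from 9721806 to 9723059 at 4.61-fold. Their widths were 1017 to 1896 bp and their relative inputs 1.27 to 2.21. The 4 of these 5 on chromosome I have the ratios of its own, lower input factor, described below. At the other end, the 5 least enriched were on V and X: 1.23-fold on V from 16592071 to 16595646 (430 ChIP reads against 350), 1.26-fold on V from 8936103 to 8938767, and 1.26-fold, 1.32-fold and 1.32-fold on X. Those on X began at 11477729, 11480852 and 7793256, and the first 2 of them lay 280 bp apart. Ratios at this end passed the q limit through their read numbers, 258 to 438 ChIP reads each.

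Chromosome I held 41 of the 71 broad regions enriched at least 3-fold, against 11 on II, 8 on V, 7 on X, 3 on IV and 1 on III. That was 37.3% of the broad regions on I, where 44.1% of the comparison regions also reached 3-fold. Elsewhere the shares were 1.19% (III) to 12.1% (II) of broad and 22.9% (X) to 29.6% (IV) of comparison regions. The median enrichment of the broad regions on I was 2.51-fold, compared with 1.86-fold on V to 1.98-fold on III. For comparison regions it was 2.79-fold on I and 2.32-fold (III) to 2.52-fold (II) elsewhere. The factor inferred for scaling the input was 1.39 on I, however, and 1.81 to 1.98 elsewhere. With the mean of the others, 1.897, in place of its own factor on chromosome I, the broad regions there had a median ratio of 1.84, and 9 instead of 41 reached 3-fold. By that factor 61 instead of 24 of its 110 broad regions were below 2-fold. The highest ratio on I became 3.89, below those of 5 regions on V and of 1 each on II and IV. Among them were V from 1227877 to 1229697 (4.46-fold), V from 3409535 to 3410578 (4.26-fold) and II from 11746530 to 11747742 (4.35-fold). The regions on V were chosen here after their values had been seen.

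Broad regions were spread over all 6 chromosomes more evenly than the list as a whole. There were 110 on I, 94 on X, 91 each on II and V, 84 on III and 76 on IV, or 4.35 to 7.32 per Mb of chromosome span. As a share of the listed regions of a chromosome they ranged from 6.17% on I (exact 95% binomial interval 5.09 to 7.38) and 6.23% on X (5.06 to 7.57) to 8.92% on V (7.24 to 10.8). Chromosome X held 17.2% of the broad regions and 21.8% of the comparison regions (odds ratio 0.744, two-sided Fisher's exact test, p = 0.0137). The shares on chromosome I were 20.1% and 21.9%, a difference that the same exact test did not resolve (p = 0.374). Only X and I were tested, and without adjustment. Chromosome V went the other way from X, with 16.7% of the broad and 12.8% of the comparison regions, which was not tested. With the input of chromosome I rescaled as above, 101 of its 110 broad regions and 568 of its 820 comparison regions stayed below the q limit, and the sign of the difference on I changed. Against all regions under 1000 bp the difference on X missed 0.05 (Fisher's exact test, p = 0.0856), as it did with broad taken from 1500 bp (p = 0.275). These tests and intervals treat regions as independent, which close neighbours are not.

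Chromosome arms, taken as the outer 30% at each end, carry fewer conserved genes and more repeats than centres on the autosomes of this species. Of the broad regions 312 lay in arms and 234 in centres, or 57.1% in arms (exact 95% interval 52.9 to 61.3). Among the comparison regions 53.9% lay in arms (52.3 to 55.5). The span itself is 60% arm. Taking chromosomes as units, the arm share of broad regions minus that of comparison regions averaged 4.34 percentage points with an SD of 11.5 over the 6 chromosomes, and it was positive on 4 of them (exact permutation test with sign flips, two-sided, p = 0.375). Over all chromosomes a difference in place was therefore not resolved.

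The average hides chromosomes that went opposite ways. On V 60.4% of 91 broad regions were in arms, compared with 42.7% of 478 comparison regions. On I the shares were 64.5% of 110 and 52.7% of 820. On X, by contrast, 52.1% of 94 broad regions were in arms, compared with 65.9% of 816 comparison regions. Fisher's exact test over regions, adjusted over the 6 chromosomes, gave p = 0.0117 on V, 0.0387 on I and 0.0357 on X, with odds ratios of 2.05, 1.64 and 0.563. On III, IV and II the shares were 57.1, 63.2 and 45.1% for broad regions and 49.7, 56.0 and 49.4% for comparison regions (adjusted p = 0.321, 0.321 and 0.496 by the same exact test). These tests treat regions as independent, although 245 of the 546 broad regions lay within 20 kb of another broad region. The comparison regions of V and X lay at opposite ends of the range of arm shares, whereas the intervals of their broad regions overlapped (49.6 to 70.5% and 41.6 to 62.5%).

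**Figure D2:**
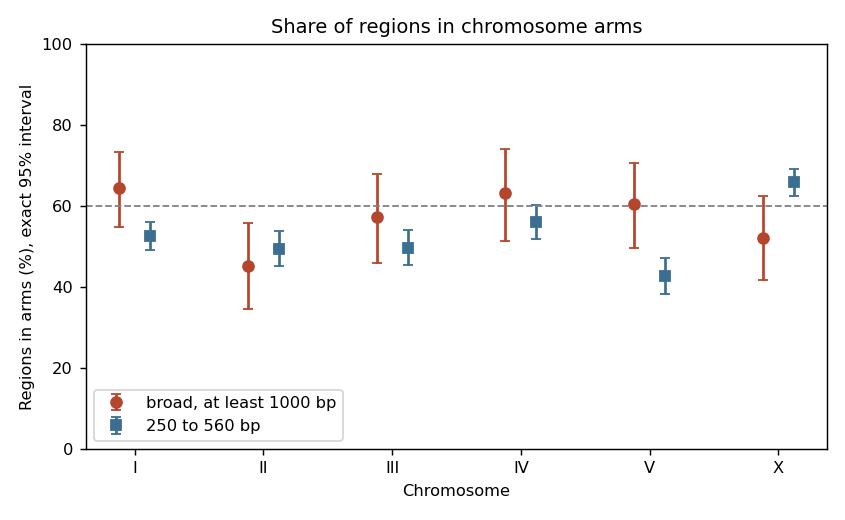
Share of regions in chromosome arms, in percent, for broad regions (circles) and regions of 250 to 560 bp (squares) on each chromosome, with exact 95% binomial intervals that cover counting error only. The dashed line marks 60%, the share of the span that is arm. Broad regions lie above the comparison regions on I, III, IV and V and below them on II and X.

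Broad regions had closer neighbours. The gap between the edges of a region and of the nearest other listed region had a median of 1020 bp for broad regions and 2213 bp for comparison regions. A gap of at most 500 bp was found for 166 broad regions (30.4%, exact 95% interval 26.6 to 34.5) and for 423 comparison regions (11.3%, 10.3 to 12.4). No gap in the list is under 200 bp. Stretches closer than that are therefore not listed apart, so gaps and widths depend on the same division into regions. How far this shapes the gaps was not tested. The medians for broad and comparison regions were 802 and 1587 bp on I, 1408 and 2305 bp on II, 565 and 2400 bp on III, 1505.5 and 2732 bp on IV, 1909 and 2748 bp on V, and 922 and 2377 bp on X. The broad median was thus the smaller one on 6 of 6 chromosomes. The mean difference was -1173 bp with an SD of 414 bp over chromosomes (exact permutation test with sign flips, two-sided, p = 0.03125, which is the smallest that 6 chromosomes allow). Adjusted over the 5 comparisons of surroundings and place, p was 0.0521, which misses 0.05. Measured between midpoints, where the width of a region adds to the distance, the mean difference was -301 bp and held on 5 of 6 chromosomes (p = 0.09375, same exact test).

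**Figure D3:**
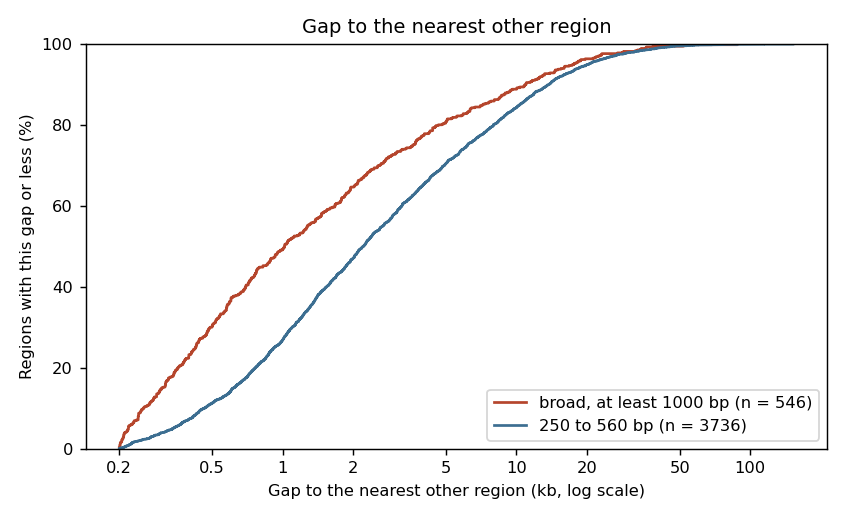
Cumulative share of regions, in percent, by the gap in kb to the edge of the nearest other listed region, on a log scale. The curve of the 546 broad regions lies above that of the 3736 regions of 250 to 560 bp, with 49.3% against 26.9% at 1 kb, and the curves come together beyond 20 kb.

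The number of regions within 20 kb, the nearest included, differed less. Within 20 kb of either edge broad regions had a mean of 5.11 other listed regions and comparison regions 4.48. The difference averaged 0.681 regions (SD 0.626 over chromosomes) and was positive on 5 of 6 chromosomes, V being the exception (exact permutation test with sign flips, two-sided, p = 0.09375, adjusted 0.117). Per chromosome the broad mean ranged from 3.22 on V to 7.44 on I, and the comparison mean from 3.40 on V to 6.17 on I. No listed region lay within 20 kb of 20 broad regions (3.66%, exact 95% interval 2.25 to 5.60) and of 191 comparison regions (5.11%, 4.43 to 5.87). On both sides within 5 kb a neighbour was found for 35.9% of broad and 25.5% of comparison regions. Over flanks of 10 kb and 50 kb the mean difference in the number of regions was 0.649 and 0.521, positive on 5 and 4 of 6 chromosomes.

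The nearest neighbour of a broad region was often broad itself. This was so for 117 of 546 broad regions (21.4%, exact 95% interval 18.1 to 25.1) and for 245 of 3736 comparison regions (6.56%, 5.78 to 7.40), in a list of which 7.29% is broad. The broad share was higher on 6 of 6 chromosomes, by 4.18 percentage points on IV to 21.4 on III, with a mean of 14.7 and an SD of 6.21 (exact permutation test with sign flips, two-sided, p = 0.03125, adjusted 0.0521). Over regions, with chromosomes as strata, the Mantel-Haenszel odds ratio was 3.83 (95% interval 3.00 to 4.88), an interval that treats regions as independent and counts each close pair from both sides. Of the 117, 92 formed 46 pairs in which each was the nearest region of the other. In 60 of the 117 the gap was at most 500 bp. The shares tested over chromosomes also count each close pair from both sides. Neighbours were called broad by the same limit of 1000 bp that chose the broad regions. Neither the permutation test nor the odds ratio is therefore independent of that choice, and neither is taken as support here. This p is also among the 5 that were adjusted together. It thus enters the adjusted p of the gap and of the neighbour's input. How many of these pairs are pieces of the same enriched stretch was not tested.

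When the nearest region at least 1000 bp away was taken instead, the shares were 13.9% for broad regions (11.1 to 17.1) and 6.37% for comparison regions (5.61 to 7.20). The mean difference over chromosomes was then 6.93 percentage points, positive on 5 of 6 (exact permutation test with sign flips, two-sided, p = 0.09375). With broad taken from 1500 bp for members and neighbours alike, the mean difference was 7.99 points and positive on 4 of 6 (same exact test, p = 0.156).

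Regions listed beside broad regions also had higher input than those beside comparison regions. The relative input of the nearest other region had a median of 1.29 for broad regions and 0.95 for comparison regions. It was higher beside broad regions on 6 of 6 chromosomes, by 0.185 on X to 0.560 on II, with a mean difference of 0.345 and an SD of 0.122 (exact permutation test with sign flips, two-sided, p = 0.03125, adjusted 0.0521). A neighbour with at least 1.5 times the median input was found beside 218 broad regions (39.9%, exact 95% interval 35.8 to 44.2) and beside 21.8% of comparison regions (20.5 to 23.2). Per kb of width alone the medians were 1.15 and 0.969 and the mean difference fell to 0.191, again positive on 6 of 6 chromosomes (same exact test, p = 0.03125). With the nearest region at least 1000 bp away the medians were 1.20 and 0.964, again with the broad value higher on 6 of 6 chromosomes. Neighbours of broad regions were also wider, with a median of 490 bp against 368 bp, and input per kb was higher in wider regions throughout the list. The nearest region was itself broad for 21.4% of broad and 6.56% of comparison regions, so the high input of broad regions enters the difference. The part of neighbour width in this difference was not tested.

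**Figure D4:**
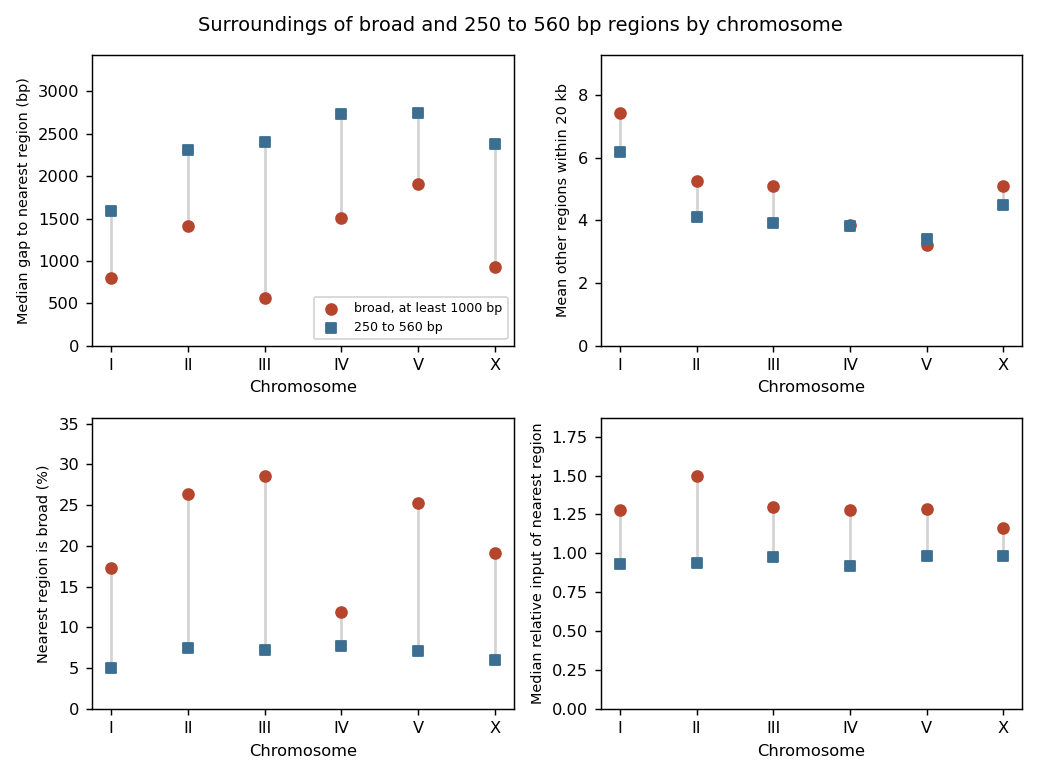
Surroundings of broad regions (circles) and regions of 250 to 560 bp (squares) on each chromosome: median gap to the nearest region in bp, mean number of other regions within 20 kb, percent whose nearest region is broad, and median relative input of the nearest region. Grey lines join the values of a chromosome. Broad regions lie lower in the upper left panel and higher in both lower panels on all 6 chromosomes, and in the upper right panel they lie higher on 5, with V below.

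The broad regions were also divided by their enrichment, as a description with no test of the differences. The 268 regions below 2-fold had a broad nearest neighbour in 25.4% of cases (exact 95% interval 20.3 to 31.0), those from 2-fold to 3-fold in 17.9% (12.9 to 23.8) and those at 3-fold or more in 16.9% (9.05 to 27.7). These intervals overlap. The neighbours' median relative input was 1.45, 1.21 and 1.18 in the same order, or 1.22, 1.10 and 1.05 per kb of width alone. The mean number of other regions within 20 kb was 4.44, 5.35 and 6.92, but 41 of the 71 regions in the last class were on chromosome I, where the list is densest.

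The gap from a broad region to the nearest other broad region had a median of 28847 bp and ranged from 201 to 714283 bp. Broad regions with edges within 20 kb of one another were joined into groups. Of the 546, 301 stood alone, 156 formed 78 pairs, and 89 formed 24 groups of 3 to 6. The larger groups were on I (7), II (5), III (5), X (4), V (2) and IV (1). Grouped and single broad regions had nearly equal enrichment, with medians of 2.01-fold and 2.02-fold, and relative inputs of 1.82 and 1.69. In 21 of the 24 groups the median relative input was at least 1.5, but in only 6 per kb of width alone. The median enrichment was below 2-fold in 13 groups, and in 17 once the input of I was rescaled by 1.897.

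The group with most members held 6 broad regions over 18.3 kb in the centre of chromosome II, from 6826659 to 6844982. Their enrichments were 1.54, 1.71, 1.70, 1.38, 2.72 and 1.90-fold from left to right, on relative inputs of 1.75 to 2.54. A single region stood out within it, from 6838213 to 6839297, with 383 ChIP reads against 141. The widest region of the list lay in another group on II, of 5 regions from 10527387 to 10559339, which held no narrower listed region and ranged from 1.57-fold to 2.51-fold. On IV, 4 regions within 8.87 kb (4019798 to 4028671) were nearly uniform, at 1.89 to 2.18-fold and relative inputs of 1.81 to 2.16. Both a uniform and a peaked arrangement were therefore found among groups.

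Groups with high ratios were fewer, and those on I depend on its input factor. On I from 5311105 to 5317135, 3 regions filled most of 6.03 kb and were enriched 3.39, 3.04 and 3.26-fold by the inferred factor of that chromosome. Rescaled by 1.897, as above, they fell to 2.48, 2.22 and 2.38. Also on I, 4 regions from 7474468 to 7519185 had ratios of 3.61, 3.23, 2.74 and 3.03, which became 2.64, 2.36, 2.00 and 2.21. A group of 5 on I, from 12545796 to 12576573, included a region at 4.23-fold (12550950 to 12552101, 317 ChIP reads against 75), which became 3.08-fold, and had relative inputs of only 1.21 to 1.79. On V the group from 4498682 to 4527877 held the region ranked 4 in the list by q, at 4.75-fold, between neighbours at 3.22 and 1.60-fold. On X the 4 regions from 3455447 to 3471269 were all under 1200 bp wide and went from 3.73-fold to 1.71-fold on relative inputs of 1.12 to 1.38.

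The group with the highest input was on chromosome III, from 7523950 to 7554200. Its 4 broad regions had relative inputs of 2.92, 4.70, 4.51 and 5.68 and enrichments of 1.54, 2.17, 1.68 and 1.35-fold. Per kb of width alone its relative inputs were 2.12 to 3.94, still with the highest median of the 24 groups. The strain's transgene carries lin-39 and unc-119, both genes of chromosome III in the RefSeq gene table. That table is on another build, so where these genes lie relative to the group was not tested.

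**Figure D5:**
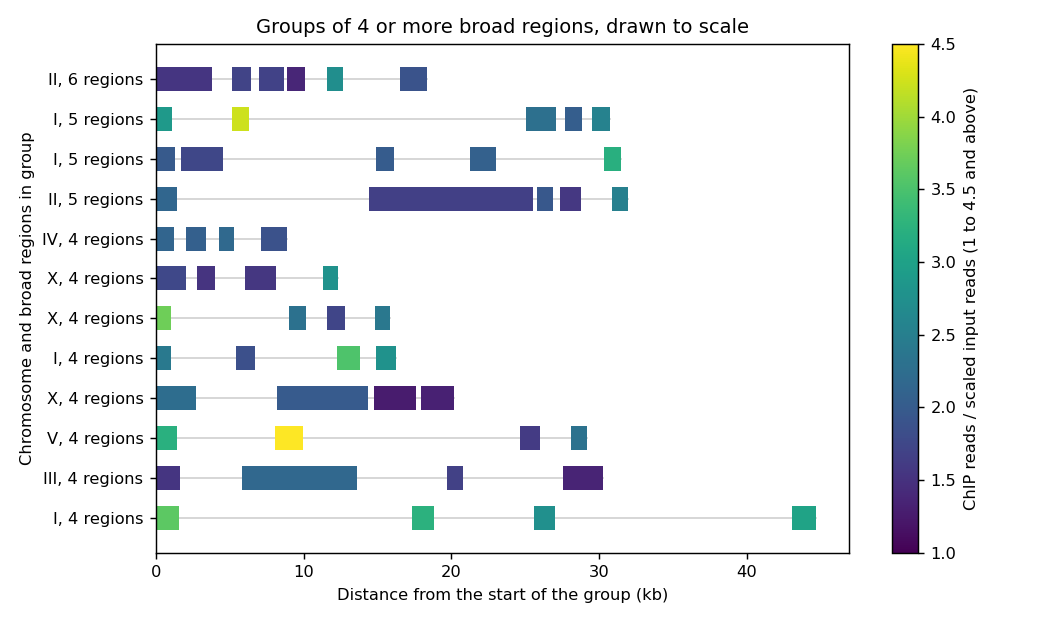
The 12 groups of 4 or more broad regions, each drawn to scale from its own start in kb, with bars for the broad regions and colour for the ratio of ChIP reads to scaled input reads. The group of 6 on II is mostly dark (low ratios) with 1 brighter region at 2.72-fold, the group of 4 on IV is uniform, and the 4-member group on V holds the brightest bar at 4.75-fold.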

How the data were processed

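Per the labels, 4 libraries (2 ChIP, 2 input) were made; their protocols give no separation of replicates beyond extraction. The values used are q-values in the authors' deposited list, called with PeakSeq on WormBase WS180 per the file headers and columns. Aligner, versions, filters and how replicates were combined are not given in the sources used here. Positions are 1-based on WS180. The only gene table at hand is WBcel235, so genes, motifs and sequences were not analysed here.

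Reads were inferred: q times rank over 25497 tests equals a binomial tail with probability 0.5 at a single pair of ChIP and scaled input numbers in 7483 of 7493 regions, all broad and comparison regions included (relative tolerance 3e-11). The authors did not list these reads. The input factor of each chromosome was found from the values that scaled input skips. Enrichment is ChIP over scaled input. Relative input is unscaled input per kb of width plus 200 bp, over the chromosome's median listed region; the added length lowers narrow regions more than wide ones.

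Gaps run between edges. Each chromosome gave 1 difference, broad minus comparison, and the 6 differences were tested by exact sign flips, with Benjamini-Hochberg adjustment over 5 comparisons. Exact binomial (Clopper-Pearson) intervals, Fisher's exact test, the Mantel-Haenszel odds ratio and a logistic model treat regions as independent and cover counting error only. No library has a value of its own, so replicate error is unknown. Python 3.11.15, scipy 1.17.1 and statsmodels 0.14.6 were used, and the steps were tested on simulated data. Named regions were drawn from the 10 widest, the widest and the smallest q per chromosome, and the 5 highest and lowest ratios. Others came from groups of 3 or more, regions beside the width limit and the highest ratios after rescaling. Not every region of these sets is named. Members and lists were chosen with earlier results of these data known.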

Additional observations from a re-analysis of the deposited data

Results flagged for a closer look

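The arm share of broad relative to comparison regions differed between X and the autosomes. On the autosomes together 58.2% of broad and 50.5% of comparison regions were in arms, an odds ratio of 1.36, whereas the odds ratio on X was 0.563. The odds ratio on X divided by that on the autosomes was 0.413 (95% interval 0.257 to 0.664, interaction term of a logistic model over regions). It was 0.488 (0.304 to 0.785) with arms of 25%, 0.427 (0.261 to 0.698) with arms of 35%, and 0.488 (0.286 to 0.834) with broad regions within 20 kb of one another counted once. X was singled out after its values had been seen, the model treats regions as independent, and II also had a lower arm share for broad regions, by 4.38 percentage points.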

How the results depend on the processing

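No paired analysis was possible because the list merges both replicates and gives nothing for a single library, which also prevented leaving out a replicate. Of 53 alternatives 39 kept the direction and the side of 0.05 for the unadjusted p. Many of these only stayed unresolved, above 0.05: arm share (11 of 11), regions within 20 kb (8 of 9) and the share on I (2 of 4). Among results with p under 0.05, the gap kept it in 5 of 8, a broad nearest region in 5 of 9, its relative input in 6 of 8 and the share on X in 2 of 4. Without chromosome I or X only 5 chromosomes are left, whose smallest exact permutation p is 0.0625. The mean differences were then -1250.5 and -1116.5 bp for the gap, 15.1 and 14.97 percentage points for a broad nearest region, and 0.345 and 0.377 for its relative input, each on 5 of 5 chromosomes. Results that lost p under 0.05 in another way were the gap between midpoints (-301 bp), and a broad nearest region with broad taken from 1500 bp (7.99 points) or at least 1000 bp away (6.93). Whether the nearest region is broad is set by the same width limit as the members, so its p is not independent of their choice in any setting. The number of regions within 20 kb passed with broad from 1500 bp (0.729 regions, 6 of 6 chromosomes). The share on chromosome I turned from -1.80 to 2.30 points with its input rescaled, since this removed more comparison than broad regions there, and reached -3.95 (p = 0.0369, Fisher's exact test) against all regions under 1000 bp. The share on X, -4.63 points, was -3.29 with broad from 1500 bp and -3.15 against all regions under 1000 bp. Beyond these the cause was not tested. With no length added to widths the mean difference in the neighbour's relative input was 0.191 in place of 0.345 (p = 0.03125, exact permutation test, 6 of 6 chromosomes), the difference between the medians of broad and comparison regions was 0.218 in place of 0.704 for input, and for ChIP reads per kb it turned from 0.311 to -0.0848. The arm share kept its direction and missed 0.05 in 11 of 11 alternatives. The Mantel-Haenszel, X interaction and 1000 bp alternatives, and the last 2 of those with no added length, were chosen after seeing the data. Depth limits regions with few reads, and the least covered broad region held 101 ChIP reads.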
